A study of Mus musculus with 3 samples.

Results

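The transcriptome of a C2C12 line carrying a Linc-RAM expression lentivirus was compared with that of a line carrying the empty vector, across all genes with a mean RPKM (reads of a gene scaled to its length and to the read total of the library) of at least 1 over the 3 libraries sequenced. This rule took 10172 of 22068 listed genes, and 10130 of them had more than 3 reads in at least 1 of the 2 libraries compared and were given a ratio. Each gene's ratio is the RPKM with overexpression over the RPKM of the control as deposited, with nothing added. C2C12 is a mouse myoblast line that leaves the cell cycle, fuses and forms myotubes once serum is lowered. The libraries were 1 control (empty lentivirus), 1 overexpression (lentivirus with Linc-RAM) and 1 knockdown (lentivirus with sh-Linc-RAM), each from cells kept under blasticidin as a stable line and held for 12 h in differentiation medium with 2% HS before polyadenylated RNA was taken. Per the study's methods the Linc-RAM insert was driven by a CMV promoter; whether a line is 1 clone or a pool is not given in the sources used here. With a single library per line, a difference between lines has no replicate check, no p-value or standard error across replicates can be given, and a difference between lines cannot be told apart from a difference between the conditions.

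Linc-RAM is a long noncoding RNA of skeletal muscle whose transcript also holds the reading frame of a small membrane protein, myoregulin. Early in differentiation the myogenic factors MyoD and myogenin bind E-boxes, Notch signals between neighbouring cells hold precursors back, and growth factors, the extracellular matrix and the actin cytoskeleton set the pace at which myoblasts withdraw from the cycle and fuse. The gene of Linc-RAM, 2310015B20Rik, spans 69667432 to 69682458 on chromosome 10 (mm9, forward strand). Its value was 1.07 RPKM with overexpression and 0 in both other libraries, and 1.07 RPKM is 1 read at a length of 443 nt. Because 3 reads of this gene would be 1.32, 3.22 and 3.61 RPKM at the 3 read totals, these values do not check the labels. A high level of Linc-RAM was not seen in the library labelled as overexpression, and the reason was not tested. The paper reports overexpression and knockdown of Linc-RAM in stable C2C12 cells by RT-qPCR, a measurement apart from these libraries.

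The read totals implied by the RPKM values were 5130481 (control), 2105513 (overexpression) and 1878146 (knockdown), so the overexpression library held 41.0% of the reads of the control. The median member had 88 control reads, 37 overexpression reads and 32 knockdown reads. Levels are given below in the order control, overexpression and knockdown, and each ratio is followed by its exact 95% Clopper-Pearson interval. The interval covers counting error only, since it is computed from the reads of 2 libraries and no spread between samples enters it. The reads carry no molecular identifiers, so duplicate reads could make it too narrow. A gene was called higher or lower where its ratio was at least 2-fold from 1 and this interval left out 1. The intervals were not adjusted for the number of genes compared, so some can leave out 1 by counting error alone. The knockdown library was set beside the others for reference and has no part in a call.

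At the 2-fold criterion, 355 of 10130 genes were higher with overexpression (3.5%) and 337 were lower (3.33%). Of these, 263 higher genes (2.6%) and 190 lower genes (1.88%) were called. Counts of called genes in the lists below are to be read beside these shares, and a count near them is nothing particular to a list. The median log2 ratio of all genes compared was 0.00, with 5108 genes above the control and 5022 below it. Changes of at least 4-fold were seen for 74 higher genes, of which 65 were called, and ratios of at most 0.25 for 49 lower genes, of which 40 were called. Much of the called signal lay in genes of low level. In 75 of the 263 called higher genes the control was under 1 RPKM, and in 58 of the 190 called lower genes the overexpression library was. Because the filter took the mean over the 3 libraries, a gene could pass it through the 1 library where it was high. With a filter of at least 1 RPKM in the knockdown library instead, 203 genes were called higher and 184 lower of 9995 compared.

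Depth set what could be seen. Among 537 genes with 4 to 19 reads over both libraries 30.5% were at least 2-fold from the control, whereas among 1219 genes with at least 500 reads 2.87% were. The share of called genes was 6.15% in the shallowest class, 7.79% at 20 to 49 reads, 6.27% at 50 to 99, 2.74% at 100 to 499 and 2.87% at 500 or more. A gene with the median 88 control reads needed a ratio of at least 1.44, or at most 0.609, for its interval to leave out 1. At 30 control reads these limits were 1.87 and 0.325, and at 10 control reads a ratio of 2.68 was needed on the higher side while no lower ratio could be seen at all. Bulk RNA does not separate a smaller number of cells that use a gene from less of its RNA in each cell.

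**Figure D1:**
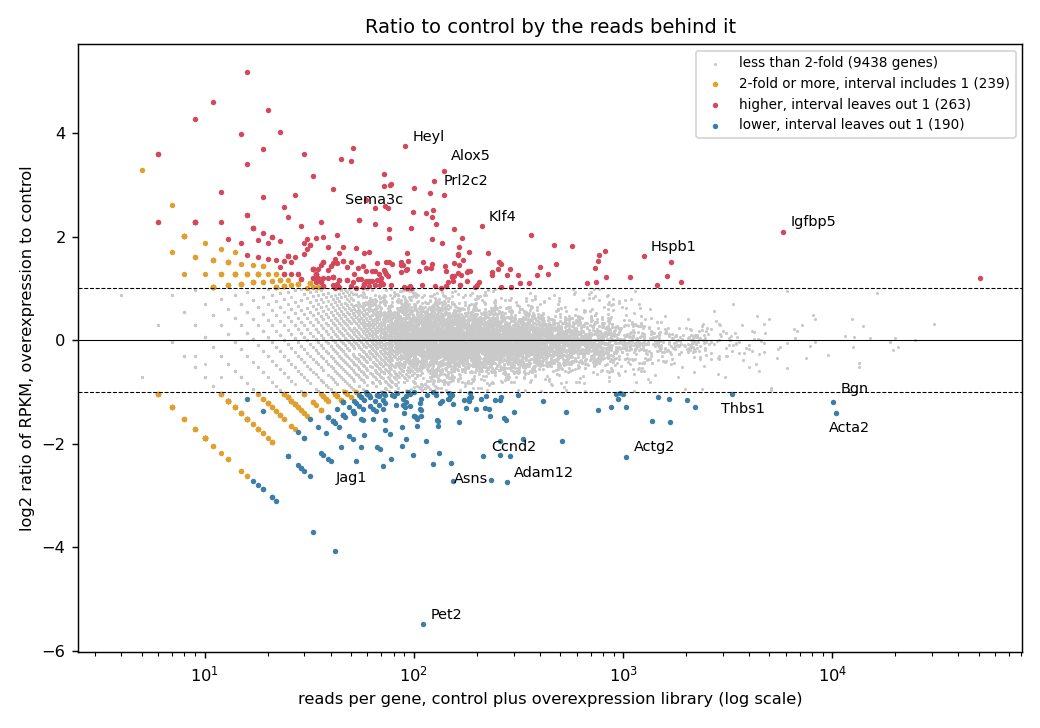
The log2 ratio of RPKM with overexpression to control (vertical axis) is plotted against the reads of each gene summed over both libraries (horizontal log axis) for 10130 genes, with dashed lines at 2-fold. Genes that were 2-fold or more from the control with an interval that includes 1 (orange) lie at the shallow end, and the called genes (263 red, 190 blue) reach from a few reads to the deepest genes.

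Among genes with a mean of at least 5 RPKM, the highest ratios belonged to genes of unlike function. Alox5, the lipoxygenase that begins leukotriene synthesis, stood at 1.93, 18.6 and 1.13 RPKM (28, 111 and 6 reads), a ratio of 9.66 (6.33 to 15.2). Prl2c2, a proliferin of the prolactin family, stood at 6.91, 58.3 and 11.5 RPKM (28, 97 and 17 reads), a ratio of 8.44 (5.49 to 13.4). Cd200, a surface glycoprotein that restrains myeloid cells, stood at 2.49, 18.0 and 6.81 RPKM (30, 89 and 30 reads), a ratio of 7.23 (4.73 to 11.3). In all 3 genes the overexpression library was the highest by a wide margin and the knockdown library lay nearer to the control. Also among the 10 highest were the serpin Serpinb9b (3.74, 21.4 and 3.31 RPKM, ratio 5.73 (3.86 to 8.66)) and the tetraspanin Tspan15 (2.11, 10.9 and 3.99 RPKM, ratio 5.19 (3.50 to 7.79)), the latter on chromosome 10, whose genes are described at the end, and Klf2, Pdlim3, Myog, Nefl and Actn3, which are given with their groups.

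The 10 lowest ratios at this level were of genes whose highest value of the 3 was that of the control. Ms4a4d, a membrane protein of the tetraspan MS4A family, stood at 16.4, 0.973 and 0 RPKM (41, 1 and 0 reads), a ratio of 0.0594 (0.00147 to 0.350). Tmem176b, another membrane protein, stood at 21.0, 3.25 and 5.20 RPKM (221, 14 and 20 reads), a ratio of 0.154 (0.0830 to 0.265). D0H4S114 stood at 20.6, 4.35 and 15.3 RPKM (266, 23 and 72 reads), a ratio of 0.211 (0.131 to 0.323). For Ms4a4d and Tmem176b the knockdown library was low as well, so that the control stood alone, while for D0H4S114 the knockdown value was closer to the control than to overexpression. The lowest ratio of all was that of Pet2 at 0.0222 (0.000556 to 0.126), from 5.13, 0.114 and 0.382 RPKM (110, 1 and 3 reads), and the highest that of Tspan7 at 36.6 (5.62 to 1539), from 0.110, 4.02 and 0.300 RPKM (1, 15 and 1 reads); these extremes lie outside the rule for named genes and were chosen after their values were seen.

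Transcription factor genes, in 11 lists with 498 genes compared, had 19 called higher (3.82%) and 9 called lower (1.81%), beside 2.6% and 1.88% of all genes. The Kruppel-like factors held 2 called higher of 16. Klf2, a zinc finger factor best known from quiescent and endothelial cells, stood at 1.93, 15.7 and 1.47 RPKM (18, 60 and 5 reads), a ratio of 8.12 (4.73 to 14.6). Klf4, a factor of epithelial differentiation and pluripotency, stood at 4.67, 21.5 and 5.597 RPKM (73, 138 and 32 reads), a ratio of 4.61 (3.44 to 6.20). Both were near the control in the knockdown library. The other 14 Kruppel-like and SP genes were within 2-fold of the control, and the median log2 ratio of the list was 0.11.

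Of the 14 HES, HEY, ID and TWIST family genes, 2 were called higher, both repressors that Notch induces. Heyl stood at 0.602, 8.07 and 0.705 RPKM (14, 77 and 6 reads), a ratio of 13.4 (7.52 to 25.7). Hes1 stood at 4.43, 9.16 and 5.50 RPKM (33, 28 and 15 reads), a ratio of 2.07 (1.20 to 3.53). The Heyl value stood far from both other libraries, whereas the counting intervals of Hes1 in the overexpression and knockdown libraries overlapped.

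Of the myogenic factors, 3 of 14 genes of the MyoD, MEF2, Pax and sine oculis families were called higher and none lower, with 10 above the control, 4 below it and a median log2 ratio of 0.42. Myog, which drives terminal differentiation, stood at 3.95, 22.1 and 3.60 RPKM (30, 69 and 10 reads), a ratio of 5.604 (3.60 to 8.91). Myod1, the determination factor of the line, stood at 16.7, 34.1 and 9.76 RPKM (159, 133 and 34 reads), a ratio of 2.04 (1.61 to 2.58). Myod1 was under 2-fold after upper quartile scaling or with 1 RPKM added. Pax7, the factor of satellite cells, stood at 0.228, 2.78 and 5.36 RPKM (5, 25 and 43 reads), a ratio of 12.2 (4.58 to 40.8). Pax7 differed from the others in that the knockdown library was the highest, so the control stood alone at the low end. The promoter window of Myog, from 250 bases before to 50 bases after its start (RefSeq, GRCm38.p6, chr1:134289754-134290053, forward strand), is shown because MyoD family factors bind E-boxes there; capitals mark the letters CANNTG, which is its own reverse complement in form and so was read once.

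Myog: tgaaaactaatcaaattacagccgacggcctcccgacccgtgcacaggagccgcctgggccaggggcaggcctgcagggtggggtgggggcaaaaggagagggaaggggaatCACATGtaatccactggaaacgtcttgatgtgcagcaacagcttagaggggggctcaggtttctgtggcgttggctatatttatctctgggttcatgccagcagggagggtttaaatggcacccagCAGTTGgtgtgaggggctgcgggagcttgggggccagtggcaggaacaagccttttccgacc

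The window held 2 matches. CANNTG occurred in 62.1% of 9323 windows of the genes compared, in 69.5% of 259 windows of called higher genes and in 73.4% of 154 windows of called lower genes. The form CAGCTG, which CANNTG includes, occurred in 15.0%, 22.4% and 24.0% of these windows. The higher and lower genes thus stood close to each other in both counts, and a match is a run of letters, not a bound site. Promoter windows were at hand for 7287 of the 10130 genes.

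The SOX list had 2 of 5 genes called higher, Sox11 at 4.52, 10.8 and 3.15 RPKM (196, 193 and 50 reads) with a ratio of 2.40 (1.96 to 2.94) and Sox8 at 0.845, 3.01 and 0.710 RPKM (13, 19 and 4 reads) with a ratio of 3.56 (1.67 to 7.85). Sox11 is a factor of neural progenitors, and both genes were lowest in the knockdown library. Among 36 homeobox genes, Dlx3 (6.06, 13.3 and 4.50 RPKM, ratio 2.20 (1.58 to 3.05)) and Hoxc13 (1.68, 3.90 and 4.81 RPKM, ratio 2.32 (1.19 to 4.50)), both known from skin and hair, were called higher. The knockdown value of Dlx3 lay at the low side and that of Hoxc13 at the high side of both other libraries.

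Forkhead genes moved both ways, with 2 called higher and 2 called lower of 20. Foxo6, a FOXO factor, stood at 0.925, 3.38 and 0.632 RPKM (12, 18 and 3 reads), a ratio of 3.66 (1.67 to 8.32). Foxq1 stood at 4.38, 1.02 and 1.90 RPKM (63, 6 and 10 reads), a ratio of 0.232 (0.0821 to 0.534), and Foxf2 at 8.73, 3.61 and 6.75 RPKM (53, 9 and 15 reads), a ratio of 0.414 (0.179 to 0.846). Nr4a1, an orphan nuclear receptor and immediate early gene, stood at 2.20, 0.384 and 2.80 RPKM (28, 2 and 13 reads), a ratio of 0.174 (0.0201 to 0.690), and was the single called gene among 20 AP-1 and immediate early genes. In the STAT, IRF and NF-kB list 2 of 19 were called lower. Nfkbie, an inhibitor of NF-kB, stood at 16.2, 5.89 and 7.48 RPKM (201, 30 and 34 reads), a ratio of 0.364 (0.239 to 0.536). Irf5, a factor of interferon induction, was listed at 0 with overexpression and stood at 1.499, 0 and 2.05 RPKM (16, 0 and 8 reads), so that its ratio is at most 0.457 with the overexpression value at the floor of 3 reads. None of 19 ETS and RUNX genes was 2-fold from the control, and of 317 zinc finger genes taken by symbol 5 were called higher and 4 lower. The zinc finger counts were not above the shares of all genes, 2.6% and 1.88%.

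**Figure D2:**
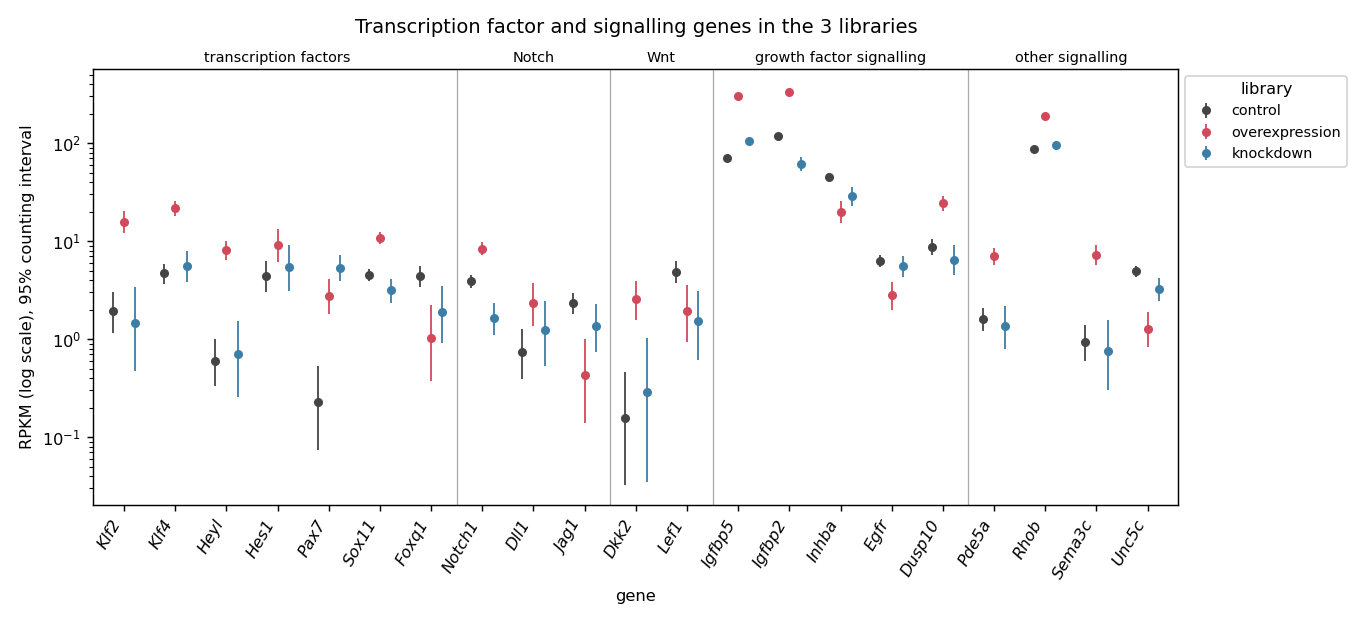
RPKM (vertical log axis) of 21 transcription factor and signalling genes in the control (dark), overexpression (red) and knockdown (blue) libraries; points are the deposited values of 1 library each and bars are exact 95% Poisson intervals, which cover counting error only. Klf2, Klf4, Heyl, Dusp10, Pde5a, Rhob and Sema3c stand alone in the overexpression library, and Pax7 stands alone in the control.

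Signalling genes, in 13 lists with 523 genes compared, had 32 called higher (6.12%) and 25 called lower (4.78%), beside 2.6% and 1.88% of all genes. Genes in no list had 1.95% called higher and 1.31% called lower. The lists were written with earlier results of these data known, so these shares are descriptive only. In the Notch pathway 4 genes were called higher and 2 lower of 28, with a median log2 ratio of 0.02. Beside the target genes Heyl and Hes1, the receptor gene Notch1 stood at 3.88, 8.36 and 1.63 RPKM (189, 167 and 29 reads), a ratio of 2.15 (1.74 to 2.67). The ligand gene Dll1 stood at 0.739, 2.36 and 1.24 RPKM (13, 17 and 8 reads), a ratio of 3.19 (1.46 to 7.13). The ligand gene Jag1 went the other way, at 2.34, 0.432 and 1.36 RPKM (66, 5 and 14 reads) and a ratio of 0.185 (0.0580 to 0.453). The coactivator gene Maml2 was also called lower, at 4.03, 1.93 and 5.20 RPKM and a ratio of 0.480 (0.299 to 0.741). Another target gene, Hey1, and another Jagged gene, Jag2, were not called, at 2.12, 1.51 and 0.483 RPKM (ratio 0.711 (0.259 to 1.70)) and 5.77, 5.15 and 2.10 RPKM (ratio 0.893 (0.618 to 1.27)). With 1 RPKM added Notch1, Hes1, Dll1 and Maml2 were under 2-fold. In the knockdown library Notch1 was the lowest of the 3 lines.

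Among 37 Wnt pathway genes 2 were called higher and 2 lower. Dkk2, a secreted modulator of Wnt coreceptors, stood at 0.158, 2.56 and 0.287 RPKM (3, 20 and 2 reads), a ratio of 16.2 (4.82 to 85.4). Sfrp2, a secreted Wnt binding protein, stood at 2.05, 0.237 and 7.45 RPKM (21, 1 and 28 reads), a ratio of 0.116 (0.00281 to 0.721). With 3 control reads for Dkk2 and 1 overexpression read for Sfrp2 the sizes of these ratios are loose. Daam1, a formin of the planar polarity branch, was measured from more reads at 3.80, 9.41 and 3.72 RPKM (117, 119 and 42 reads), a ratio of 2.48 (1.90 to 3.23). Lef1, a nuclear partner of beta-catenin, stood at 4.84, 1.93 and 1.52 RPKM (61, 10 and 7 reads), a ratio of 0.399 (0.182 to 0.786). It was low in both the overexpression and the knockdown line. The abundant members, Ctnnb1 among them (115, 90.8 and 127 RPKM, ratio 0.790 (0.724 to 0.861)), were within 2-fold.

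Growth factor and receptor genes leaned lower. Of 39 genes of the FGF, EGF, PDGF, HGF and VEGF families none was called higher and 4 were called lower, with 10 above the control and a median log2 ratio of -0.39. Egfr, the receptor of EGF, stood at 6.24, 2.80 and 5.54 RPKM (206, 38 and 67 reads), a ratio of 0.449 (0.309 to 0.638). The ligand gene Nrg1 stood at 3.80, 1.36 and 3.29 RPKM (41, 6 and 13 reads), a ratio of 0.357 (0.124 to 0.845). Vegfc (9.74, 3.53 and 10.2 RPKM, ratio 0.363 (0.191 to 0.640)) and Figf, which encodes VEGF-D (4.57, 1.77 and 5.68 RPKM, ratio 0.388 (0.147 to 0.868)), are the paired ligands of lymphatic growth. For all 4 genes the knockdown library stood close to the control and the overexpression library alone was low. The 2 most abundant members, Axl (62.9, 49.98 and 45.0 RPKM, ratio 0.795 (0.720 to 0.877)) and Csf1 (60.7, 35.2 and 60.4 RPKM, ratio 0.580 (0.486 to 0.689)), were below the control by less than 2-fold.

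In the TGF-beta, activin and BMP list 1 gene was called higher and 3 lower of 42. Inhba, the activin A subunit, stood at 44.7, 19.9 and 28.9 RPKM (351, 64 and 83 reads), a ratio of 0.444 (0.335 to 0.581). The activin receptor gene Acvr2a stood at 1.89, 0.836 and 1.03 RPKM (55, 10 and 11 reads), a ratio of 0.443 (0.201 to 0.878). Both genes had intermediate values in the knockdown library, their intervals reached above 0.5, and Acvr2a was under 2-fold with 1 RPKM added. Of the 42 genes 16 were above the control and 26 below it, with a median log2 ratio of -0.11. Gdf15, a secreted stress cytokine of this family, stood at 1.80, 8.32 and 2.46 RPKM (10, 19 and 5 reads), a ratio of 4.63 (2.05 to 11.1).

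Igfbp5 and Igfbp2 encode IGF binding proteins, which carry IGF outside the cell and set its access to the receptor. Igfbp5 stood at 70.3, 300.02 and 104 RPKM (2110, 3698 and 1147 reads), a ratio of 4.27 (4.05 to 4.51), and Igfbp2 at 117, 334 and 61.2 RPKM (786, 917 and 150 reads), a ratio of 2.84 (2.58 to 3.13). These were the 2 called genes among 26, whose median log2 ratio was 0.00. The summed RPKM of the list was 1289, 1841 and 656, of which the noncoding RNA H19, placed in this list, made up 697, 845 and 119.7 RPKM. In the knockdown library Igfbp5 was also above the control, by less, and Igfbp2 was the lowest of the 3.

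Of 43 genes of MAPK and receptor feedback, 19 were above the control and 24 below it, with a median log2 ratio of -0.04. In this list 1 gene was called lower and 4 were called higher. The MAPK phosphatase genes Dusp10 (8.77, 24.3 and 6.48 RPKM (122, 139 and 33 reads), ratio 2.78 (2.16 to 3.57)), Dusp1 (4.22, 11.5 and 4.39 RPKM (42, 47 and 16 reads), ratio 2.73 (1.76 to 4.24)) and Dusp8 (0.809, 1.87 and 0.442 RPKM, ratio 2.31 (1.17 to 4.57)) were among them. Socs2, an inhibitor of cytokine receptors, stood at 8.60, 20.6 and 5.53 RPKM (119, 117 and 28 reads), a ratio of 2.40 (1.84 to 3.12), and lies on chromosome 10. Lrig3, a receptor feedback gene also on chromosome 10, was lower at 5.53, 1.88 and 6.05 RPKM (115, 16 and 46 reads), a ratio of 0.339 (0.187 to 0.574). No member of this list was 2-fold from the control in the overexpression library beyond these 5. With 1 RPKM added Dusp8 was under 2-fold.

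Of 55 G protein-coupled receptor genes 6 were called higher and 4 lower, beside 2.6% and 1.88% of all genes. Cxcr7, a scavenger receptor of CXCL12, stood at 16.5, 40.1 and 15.3 RPKM (218, 218 and 74 reads), a ratio of 2.44 (2.01 to 2.95). Calcrl, a receptor of CGRP and adrenomedullin, stood at 0.905, 3.11 and 1.69 RPKM (22, 31 and 15 reads), a ratio of 3.43 (1.92 to 6.22), and Gpr126, an adhesion receptor on chromosome 10, at 4.16, 10.8 and 6.22 RPKM (139, 148 and 76 reads), a ratio of 2.59 (2.04 to 3.29). Gpr176 was lower at 15.0, 4.01 and 3.95 RPKM (301, 33 and 29 reads), a ratio of 0.267 (0.181 to 0.383). Lphn2, a latrophilin, stood at 21.0, 8.24 and 20.4 RPKM (651, 105 and 232 reads), a ratio of 0.393 (0.317 to 0.484), and S1pr3, a receptor of sphingosine 1-phosphate, at 9.56, 4.45 and 1.42 RPKM (220, 42 and 12 reads), a ratio of 0.465 (0.326 to 0.649). Gpr176 and S1pr3 were low with both overexpression and knockdown, while Lphn2 was low with overexpression and near the control with knockdown.

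Downstream of these receptors, 4 of 47 cyclic nucleotide and calcium enzymes were called higher and 1 lower. Pde5a, which degrades cyclic GMP, stood at 1.59, 7.06 and 1.35 RPKM (55, 100 and 17 reads), a ratio of 4.43 (3.16 to 6.27). Pde4b and Pde8a, which degrade cyclic AMP, stood at 1.68, 3.46 and 2.91 RPKM (ratio 2.06 (1.35 to 3.14)) and 0.218, 1.59 and 1.19 RPKM (ratio 7.31 (1.82 to 42.0)). Pde8a had 3 control reads, and Pde4b was under 2-fold with 1 RPKM added. Of the 47 genes 19 were above the control and 28 below it, with a median log2 ratio of -0.12. Camk1g, a calcium and calmodulin kinase, was lower at 2.70, 0.581 and 1.74 RPKM (34, 3 and 8 reads), a ratio of 0.215 (0.0422 to 0.684). Rgs16, which speeds the turn-off of G proteins, was the 1 called gene of 31 in its list, at 0.668, 3.46 and 0.912 RPKM (8, 17 and 4 reads) and a ratio of 5.18 (2.12 to 13.9).

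Axon guidance genes, which steer cell migration in many tissues, had 6 called higher and 2 lower of 44, beside 2.6% and 1.88% of all genes. The semaphorin gene Sema3c stood at 0.944, 7.28 and 0.752 RPKM (24, 76 and 7 reads), a ratio of 7.72 (4.82 to 12.8). Sema6a, a membrane semaphorin, stood at 2.21, 7.23 and 0.541 RPKM (78, 105 and 7 reads), a ratio of 3.28 (2.42 to 4.45). Ntn1, which encodes netrin 1, stood at 14.3, 33.5 and 10.9 RPKM (422, 405 and 118 reads), a ratio of 2.34 (2.04 to 2.69). Unc5c, a netrin receptor gene, went the other way at 4.91, 1.28 and 3.26 RPKM (234, 25 and 57 reads), a ratio of 0.260 (0.165 to 0.394). Another netrin gene, Ntn4 on chromosome 10, was called from 2 control reads at 0.162, 2.56 and 1.33 RPKM, a ratio of 15.8 (3.59 to 145). Ntn1 lies outside the rule for named genes and was chosen after its value was seen. Of the 44 genes 23 were above the control and 21 below it, with a median log2 ratio of 0.08.

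Rhob, an endosomal GTPase, was called higher, at 87.0, 189.8 and 94.7 RPKM (994, 890 and 396 reads) and a ratio of 2.18 (1.99 to 2.39). The kinase gene Pak3 (2.52, 0.793 and 2.49 RPKM (116, 15 and 42 reads), ratio 0.315 (0.171 to 0.541)), the GTPase activator gene Arhgap24 (2.85, 1.14 and 4.14 RPKM, ratio 0.398 (0.163 to 0.847)) and the exchange factor gene Dock6 (1.66, 0.796 and 1.06 RPKM, ratio 0.479 (0.226 to 0.923)) were called lower. In the Hedgehog and Hippo list Vgll2, a muscle cofactor of TEAD factors on chromosome 10, was called higher from 1 control read (0.133, 3.24 and 0 RPKM (1, 10 and 0 reads), ratio 24.4 (3.47 to 1057)) and Tead3 was called lower (8.11, 3.80 and 6.91 RPKM (125, 24 and 39 reads), ratio 0.468 (0.289 to 0.728)). Of 41 TNF and interleukin receptor genes none was called higher and 2 were called lower.

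**Figure D3:**
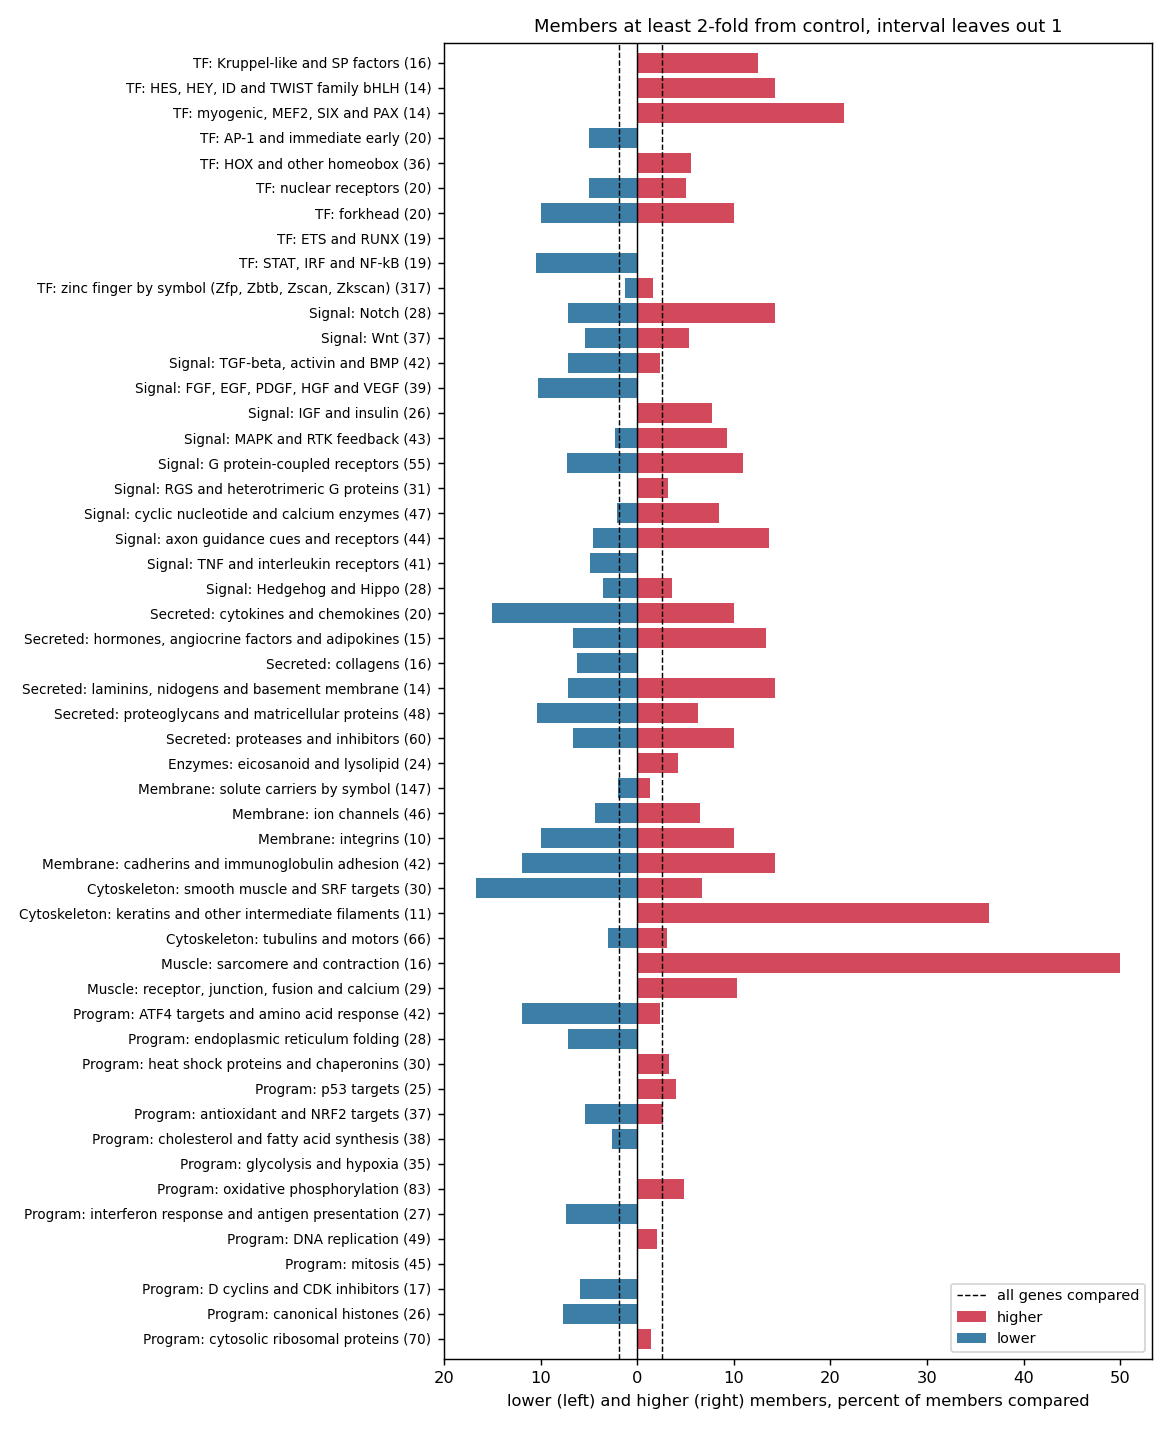
Share of the compared members of each list (number in brackets, lists of 10 or more, 1 of them not shown) that were called lower (blue, left) or higher (red, right), in percent of members compared; dashed lines mark 1.88% and 2.6%, the shares among all genes. Bars of short lists rest on a few genes; the contractile, intermediate filament and myogenic factor lists reach farthest to the right and the smooth muscle list farthest to the left.

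Genes of secreted proteins, in 8 lists with 182 compared, had 17 called higher (9.34%) and 17 called lower (9.34%), beside 2.6% and 1.88% of all genes. Among 20 cytokine and chemokine genes, 2 were called higher and 3 lower. Il18, an interleukin of innate immunity, stood at 1.13, 6.03 and 5.53 RPKM (5, 11 and 9 reads), a ratio of 5.36 (1.72 to 19.7), and Saa3, an acute phase protein, at 9.18, 20.6 and 20.1 RPKM (25, 23 and 20 reads), a ratio of 2.24 (1.22 to 4.12). Il1rn, the antagonist of the IL-1 receptor, stood at 12.4, 4.94 and 0.594 RPKM (171, 28 and 3 reads), a ratio of 0.399 (0.258 to 0.597). The chemokine genes Ccl9 and Ccl7 stood at 3.30, 0.789 and 0.531 RPKM (51, 5 and 3 reads), a ratio of 0.239 (0.0744 to 0.595), and at 18.3, 8.32 and 9.33 RPKM (75, 14 and 14 reads), a ratio of 0.455 (0.237 to 0.811). In each of these 5 genes the control was the outermost of the 3 values. Spp1, the most abundant of the list, stood at 326, 451 and 208 RPKM, a ratio of 1.38 (1.30 to 1.47).

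Prl2c2, described above, was the only one of 27 listed prolactin family genes with a mean of at least 1 RPKM; near-identical proliferin copies share reads with it, and how such reads were counted is not given in the sources used here. In the list of hormones and angiocrine factors 2 of 15 genes were called higher, Nptx1, a neuronal pentraxin (0.812, 3.86 and 0.403 RPKM (22, 43 and 4 reads), ratio 4.76 (2.79 to 8.36)), and C1qtnf3, an adipokine (8.19, 17.7 and 20.5 RPKM, ratio 2.17 (1.63 to 2.88)). The long pentraxin gene Ptx3 was listed at 0 with overexpression and stood at 1.93, 0 and 1.39 RPKM (19, 0 and 5 reads), so its ratio is at most 0.385 at the floor of 3 reads.

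Of 16 collagen genes 12 were below the control and 1 was called lower, with a median log2 ratio of -0.36. Col1a1, one chain of collagen I, stood at 78.2, 32.0 and 65.7 RPKM (1884, 317 and 580 reads), a ratio of 0.410 (0.363 to 0.462). Its partner chain Col1a2 stood at 178, 123 and 151 RPKM (4708, 1329 and 1459 reads), a ratio of 0.688 (0.647 to 0.731), and Col3a1 at 163, 167 and 148 RPKM (4655, 1959 and 1546 reads), a ratio of 1.03 (0.972 to 1.08). The chains of one fibre type were therefore lower by unlike amounts, and Col3a1 was not distinguishable from the control at this depth. Serpinh1, the collagen chaperone, was among the 5 largest losses in RPKM at 558, 368 and 406 RPKM, a ratio of 0.658 (0.612 to 0.708).

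Proteoglycan and matricellular genes had 3 called higher and 5 lower of 48, with 13 above the control and a median log2 ratio of -0.20. Bgn, the small proteoglycan biglycan, lost more RPKM than any gene but Acta2, at 698, 305 and 511 RPKM (8557, 1535 and 2294 reads) and a ratio of 0.437 (0.414 to 0.462). Fmod, the related fibromodulin, stood at 4.16, 0.997 and 8.01 RPKM (61, 6 and 43 reads), a ratio of 0.240 (0.0847 to 0.552). Decorin, another of this family, went the other way, with Dcn at 1.12, 4.33 and 0.766 RPKM (12, 19 and 3 reads) and a ratio of 3.86 (1.78 to 8.72); Dcn lies on chromosome 10. Related genes also parted elsewhere in the list. Thbs1 stood at 186, 90.7 and 208 RPKM (2763, 554 and 1133 reads), a ratio of 0.489 (0.445 to 0.535), and Thbs2 at 11.4, 33.1 and 17.0 RPKM (347, 413 and 189 reads), a ratio of 2.90 (2.51 to 3.35); both encode thrombospondins. The hyaluronan synthase gene Has2 stood at 8.08, 3.69 and 5.27 RPKM (176, 33 and 42 reads), a ratio of 0.457 (0.305 to 0.666), and Has1 at 1.49, 6.13 and 0.255 RPKM (16, 27 and 1 reads), a ratio of 4.11 (2.14 to 8.17). In the knockdown library Thbs1 and Thbs2 were both above the control, and Has1 and Has2 were both below it.

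In the basement membrane list Npnt, nephronectin, a ligand of integrins, stood at 5.08, 16.3 and 11.6 RPKM (97, 128 and 81 reads), a ratio of 3.22 (2.45 to 4.23). Smoc2 was the 1 called lower of 14, at 12.9, 5.20 and 16.0 RPKM (188, 31 and 85 reads) and a ratio of 0.402 (0.265 to 0.590). Smoc2 was higher in the knockdown library than in either other line, and Npnt was higher with both overexpression and knockdown than in the control.

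Secreted proteases and their inhibitors had 6 called higher and 4 lower of 60, beside 2.6% and 1.88% of all genes. Adam12, a metalloprotease of fusing myoblasts, had the lowest ratio of the list at 6.65, 0.9902 and 6.45 RPKM (262, 16 and 93 reads) and a ratio of 0.149 (0.0838 to 0.246). Adamts2, the procollagen N-proteinase, stood at 4.79, 1.52 and 3.56 RPKM (92, 12 and 25 reads), a ratio of 0.318 (0.158 to 0.582). F3, tissue factor, which starts coagulation, stood at 15.1, 5.06 and 7.66 RPKM (145, 20 and 27 reads), a ratio of 0.336 (0.199 to 0.538). Mmp9, gelatinase B, stood at 2.48, 0.908 and 1.53 RPKM (40, 6 and 9 reads), a ratio of 0.366 (0.127 to 0.868). On the higher side stood Plau, the urokinase plasminogen activator, at 15.9, 42.6 and 12.5 RPKM (191, 210 and 55 reads) and a ratio of 2.68 (2.19 to 3.28). Mmp15 (0.865, 2.33 and 0.622 RPKM, ratio 2.69 (1.38 to 5.30)) and Adam8 (1.03, 2.66 and 0.351 RPKM, ratio 2.59 (1.23 to 5.48)) were called higher from 21 and 17 overexpression reads. For Adam12 the knockdown library matched the control to within its counting interval and the overexpression library was low alone.

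Of 9 complement genes, the classical pathway protease gene C1ra stood at 11.1, 5.16 and 11.6 RPKM (157, 30 and 60 reads), a ratio of 0.466 (0.304 to 0.691), and C3, the central component, at 7.02, 3.33 and 3.01 RPKM (185, 36 and 29 reads), a ratio of 0.474 (0.322 to 0.681). Both were called lower. Cd55, which shields cells from complement, was called higher at 2.08, 5.64 and 0.211 RPKM (27, 30 and 1 reads), a ratio of 2.71 (1.56 to 4.73), and had 1 read in the knockdown library.

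**Figure D4:**
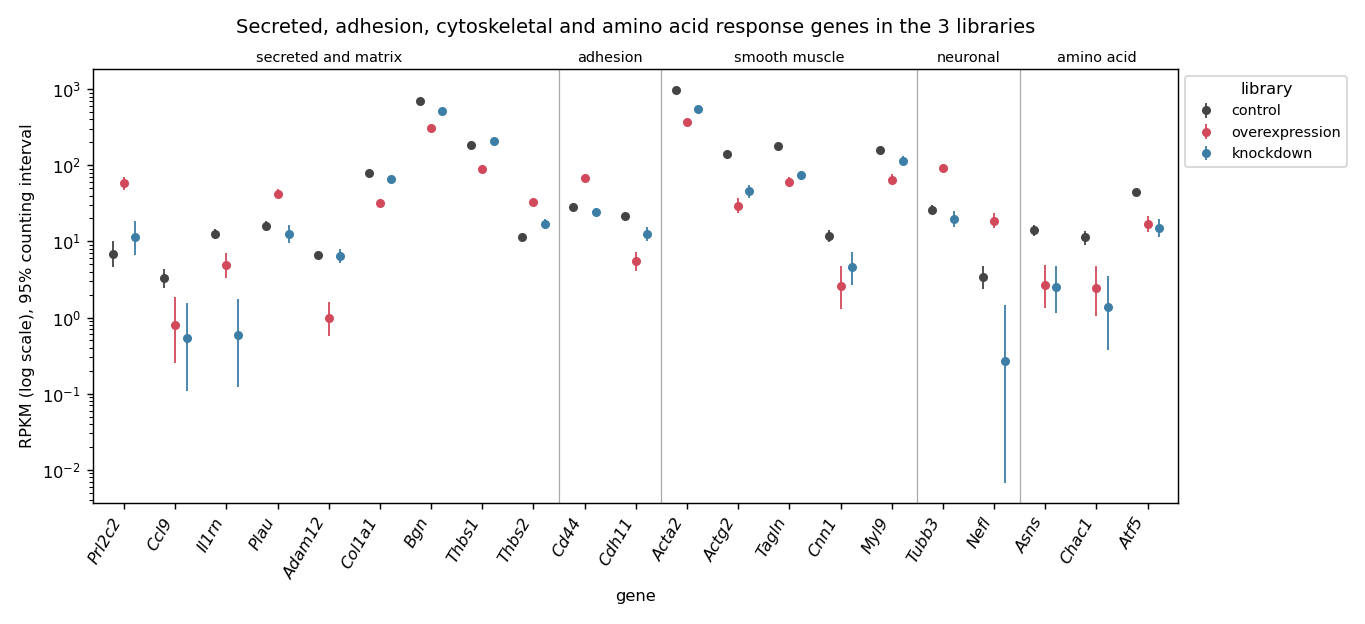
RPKM (vertical log axis) of 21 secreted, adhesion, cytoskeletal and amino acid response genes in the control (dark), overexpression (red) and knockdown (blue) libraries; points are single libraries and bars exact 95% Poisson intervals. Adam12, Thbs1 and Cdh11 are lowest with overexpression, the smooth muscle and amino acid genes are highest in the control, and Prl2c2, Plau, Cd44, Tubb3 and Nefl are highest with overexpression.

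At the cell surface, cadherins and immunoglobulin adhesion genes had 6 called higher and 5 lower of 42, beside 2.6% and 1.88% of all genes. L1cam, an adhesion molecule of axons, stood at 0.627, 4.94 and 0.201 RPKM (17, 55 and 2 reads), a ratio of 7.88 (4.51 to 14.5). Jam2, a junctional molecule that takes part in myoblast fusion, stood at 9.02, 25.04 and 10.3 RPKM (223, 254 and 93 reads), a ratio of 2.78 (2.31 to 3.34). Cd44, the hyaluronan receptor, stood at 28.3, 67.1 and 24.5 RPKM (820, 799 and 260 reads), a ratio of 2.37 (2.15 to 2.62). The called genes of immunoglobulin type, L1cam, Jam2 and Cd200, were higher, and of 5 called cadherins and protocadherins 4 were lower. Cdh11 stood at 21.4, 5.52 and 12.6 RPKM (463, 49 and 100 reads), a ratio of 0.258 (0.188 to 0.347). The protocadherins Pcdhgc5 (4.76, 0.908 and 2.71 RPKM (115, 9 and 24 reads), ratio 0.191 (0.0850 to 0.375)) and Pcdh18 (8.90, 3.12 and 10.8 RPKM (236, 34 and 105 reads), ratio 0.351 (0.237 to 0.504)) were lower and Cdh18 was higher (2.20, 5.54 and 1.36 RPKM, ratio 2.52 (1.49 to 4.26)).

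Of 10 integrin genes, Itga7, the laminin receptor chain of muscle, was called higher at 16.8, 55.8 and 17.6 RPKM (346, 472 and 133 reads), a ratio of 3.32 (2.89 to 3.83), and lies on chromosome 10. Itga11, a collagen receptor chain, was called lower at 2.21, 0.770 and 1.29 RPKM (56, 8 and 12 reads), a ratio of 0.348 (0.143 to 0.734). Among 46 ion channel genes Kcnh2, a voltage-gated potassium channel, was lowest at 2.26, 0.450 and 4.54 RPKM (49, 4 and 36 reads), a ratio of 0.199 (0.0521 to 0.543), and was highest in the knockdown library. Of 147 solute carriers 2 were called higher and 3 lower, near or below the shares of all genes, 2.6% and 1.88%. The lower ones included the iron exporter Slc40a1 (3.98, 1.12 and 2.99 RPKM (69, 8 and 19 reads), ratio 0.283 (0.117 to 0.588)).

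Smooth muscle genes of the actin cytoskeleton, many of them targets of the serum response factor SRF, included the gene with the largest loss in RPKM. Of 30 compared 5 were called lower and 2 higher, and 7 were above the control, with a median log2 ratio of -0.10. Acta2, smooth muscle alpha actin, lost more RPKM than any other gene, at 985, 373 and 544 RPKM (8998, 1399 and 1820 reads) and a ratio of 0.379 (0.358 to 0.401). Actg2, smooth muscle gamma actin, stood at 141, 29.6 and 45.8 RPKM (953, 82 and 113 reads), a ratio of 0.210 (0.165 to 0.263). Tagln, the actin binding transgelin, stood at 182, 60.8 and 74.2 RPKM (1478, 203 and 221 reads), a ratio of 0.335 (0.288 to 0.388). Cnn1, calponin, stood at 11.9, 2.63 and 4.56 RPKM (121, 11 and 17 reads), a ratio of 0.222 (0.108 to 0.411), and Myl9, a regulatory light chain, at 159, 64.9 and 116 RPKM (886, 148 and 235 reads), a ratio of 0.407 (0.340 to 0.485). For all 5 the control was the highest library, overexpression the lowest and knockdown between them. The other actin of high level, Actg1, stood at 1549, 1407 and 1299 RPKM, a ratio of 0.908 (0.881 to 0.936). Actin genes share long stretches of sequence, so some of their reads could be shared. The LIM domain genes Fhl1 (23.9, 62.6 and 23.1 RPKM (353, 379 and 125 reads), ratio 2.62 (2.26 to 3.03)) and Pdlim1 (5.57, 16.1 and 4.60 RPKM, ratio 2.89 (1.89 to 4.44)) were higher.

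The promoter window of Myl9 (RefSeq, GRCm38.p6, chr2:156775214-156775513, forward strand) is printed as the one of these 5 genes whose window held a CArG box, the sequence SRF binds, in capitals.

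Myl9: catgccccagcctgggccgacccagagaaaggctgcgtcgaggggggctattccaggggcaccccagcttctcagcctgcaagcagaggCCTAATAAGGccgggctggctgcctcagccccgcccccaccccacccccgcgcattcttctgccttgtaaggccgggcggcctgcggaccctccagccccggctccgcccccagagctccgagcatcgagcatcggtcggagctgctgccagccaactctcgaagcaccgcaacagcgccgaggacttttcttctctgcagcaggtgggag

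The box began at position -161, counted from the start. CArG boxes were found on either strand in 1.37% of 9323 windows and in 7 of 32 windows (21.9%) of the smooth muscle list, among which windows for 3 of the 5 called lower genes were at hand. The list was written from known SRF targets, so that this share describes the list and not its levels.

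Some filament and tubulin genes best known from neurons and epithelia were among the called higher genes. Of 11 keratin and other intermediate filament genes 4 were called higher and none lower, and of 66 tubulin and motor genes 2 were called higher and 2 lower. The neurofilament genes Nefl and Nefm stood at 3.41, 18.8 and 0.266 RPKM (35, 79 and 1 reads), a ratio of 5.50 (3.65 to 8.44), and at 1.15, 6.76 and 0.495 RPKM (19, 46 and 3 reads), a ratio of 5.90 (3.39 to 10.7). Tubb3, the neuronal beta tubulin, stood at 26.2, 92.6 and 19.8 RPKM (232, 336 and 64 reads), a ratio of 3.53 (2.98 to 4.19). The epithelial keratin gene Krt19 stood at 0.284, 6.23 and 2.33 RPKM (2, 18 and 6 reads), a ratio of 21.9 (5.25 to 195), while Krt14, a keratin of basal epithelium, was not called at 8.81, 6.29 and 11.9 RPKM (75, 22 and 37 reads) and a ratio of 0.715 (0.423 to 1.16). Dync1i1, a dynein chain of neurons, stood at 0.626, 6.95 and 0 RPKM (9, 41 and 0 reads), a ratio of 11.1 (5.31 to 26.0). Kif1a, the motor of synaptic vesicle precursors, was lower at 3.42, 0.518 and 1.29 RPKM (145, 9 and 20 reads), a ratio of 0.151 (0.0678 to 0.295). The neurofilament and tubulin genes were lowest in the knockdown library, and Krt19 was lowest in the control.

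These genes also belong to marker lists of other cell types. Of 22 neuronal and glial markers 8 were compared, 5 were called higher and 1 was called lower, Stmn2 at 81.9, 37.4 and 9.51 RPKM (800, 150 and 34 reads) and a ratio of 0.457 (0.381 to 0.545); 8 were at 0 in all 3 libraries. Gap43, of growth cones, stood at 5.99, 19.3 and 4.09 RPKM, a ratio of 3.23 (2.10 to 4.996). The summed RPKM of the list was 129, 189 and 40.1 in the order given above. Its median log2 ratio was 1.53 over the 8 genes compared, and 0.87 over 5 genes with at least 1 RPKM in the knockdown library. Of the markers that define these cells, Gfap, Sox10 and Snap25 were at 0 in all 3 libraries and Syp was at 0 in the control and overexpression libraries. Among markers of other cells, Ptprc, Emr1 and Lyz2 of leukocytes, Epcam, Cdh1 and Krt18 of epithelium, Adipoq and Plin1 of adipocytes, Kdr of endothelium, and Lum and Thy1 of fibroblasts were at 0 in all 3. Other members of these lists were present, with Krt14 as given above, the leukocyte marker Cd14 at 3.12, 4.76 and 3.91 RPKM and the adipocyte factor gene Cebpa called lower at 6.57, 2.34 and 2.82 RPKM and a ratio of 0.356 (0.182 to 0.640). Summed RPKM was 4.56, 6.01 and 5.91 for leukocyte markers, 9.56, 13.8 and 15.4 for epithelial markers and 8.36, 6.16 and 5.71 for adipocyte markers. The leukocyte marker Cd68 stood at 0.967, 0.471 and 1.58 RPKM, the epithelial Krt8 at 0.108, 0 and 0 RPKM, the endothelial Pecam1 at 0, 0.144 and 0 RPKM and the fibroblast Pdgfra at 3.39, 2.68 and 6.56 RPKM. The myoblast markers were all present, with Des, desmin, at 291, 386 and 145 RPKM and Cdh15, M-cadherin, at 22.6, 41.8 and 10.9 RPKM.

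Called genes of the sarcomere and of muscle excitation were higher. Of 16 sarcomere genes compared 8 were called higher and none lower, and of 29 genes of the synapse, fusion and calcium release 3 were called higher and 1 was 2-fold lower without a call. The median log2 ratio of the sarcomere genes was 0.95, and 0.09 over the 6 with a mean of at least 5 RPKM. Over 12 sarcomere genes with at least 1 RPKM in the knockdown library it was 0.36. Actn3, an alpha actinin of fast fibres, stood at 2.94, 14.0 and 2.98 RPKM (43, 84 and 16 reads), a ratio of 4.76 (3.26 to 7.04). Pdlim3, a Z-disc partner of actinin, stood at 2.59, 15.7 and 1.012 RPKM (21, 52 and 3 reads), a ratio of 6.03 (3.57 to 10.55). Most of this list was under the level needed for comparison, with 27 of 65 listed genes at 0 in all 3 libraries.

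Targets of ATF4, the factor that cells switch on when amino acids run short or unfolded protein builds up, leaned lower. Of 42 compared 6 were above the control, 5 were called lower and 1 was called higher, Gdf15, with a median log2 ratio of -0.39. Asns, asparagine synthetase, stood at 14.1, 2.71 and 2.49 RPKM (139, 11 and 9 reads), a ratio of 0.193 (0.0941 to 0.356). Chac1, which degrades glutathione, stood at 11.3, 2.42 and 1.36 RPKM (91, 8 and 4 reads), a ratio of 0.214 (0.0898 to 0.440). Trib3, a pseudokinase that feeds back on ATF4, stood at 2.95, 0.926 and 0.260 RPKM (31, 4 and 1 reads), a ratio of 0.314 (0.0806 to 0.889). All 3 were at similar or lower levels in the knockdown library, so that the control stood alone at the high end. Atf5, a related factor gene, stood at 44.9, 17.2 and 15.2 RPKM (459, 72 and 57 reads), a ratio of 0.382 (0.294 to 0.491). Herpud1, of protein degradation at the endoplasmic reticulum, stood at 16.0, 7.87 and 21.9 RPKM (154, 31 and 77 reads), a ratio of 0.491 (0.322 to 0.725), with the knockdown library above the control. Atf4 itself stood at 109, 85.4 and 81.8 RPKM (964, 310 and 265 reads), a ratio of 0.784 (0.687 to 0.891).

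The promoter windows of the 3 lowest targets are shown with the amino acid response element in capitals, read as TGATGNAA on either strand (RefSeq, GRCm38.p6; Asns chr6:7693160-7693459 reverse strand, Chac1 chr2:119350992-119351291 forward strand, Trib3 chr2:152344011-152344310 reverse strand).

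Asns: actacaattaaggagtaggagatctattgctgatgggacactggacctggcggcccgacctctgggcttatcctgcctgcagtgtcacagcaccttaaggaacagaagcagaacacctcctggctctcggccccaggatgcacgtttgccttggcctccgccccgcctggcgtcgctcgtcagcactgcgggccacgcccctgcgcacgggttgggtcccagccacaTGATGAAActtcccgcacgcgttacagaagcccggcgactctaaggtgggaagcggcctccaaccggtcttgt

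Chac1: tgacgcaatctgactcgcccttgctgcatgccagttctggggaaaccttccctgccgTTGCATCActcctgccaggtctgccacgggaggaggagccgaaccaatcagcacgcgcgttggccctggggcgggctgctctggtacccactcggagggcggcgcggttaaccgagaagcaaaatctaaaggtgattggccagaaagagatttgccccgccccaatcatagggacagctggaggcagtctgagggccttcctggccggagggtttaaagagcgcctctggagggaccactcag

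Trib3: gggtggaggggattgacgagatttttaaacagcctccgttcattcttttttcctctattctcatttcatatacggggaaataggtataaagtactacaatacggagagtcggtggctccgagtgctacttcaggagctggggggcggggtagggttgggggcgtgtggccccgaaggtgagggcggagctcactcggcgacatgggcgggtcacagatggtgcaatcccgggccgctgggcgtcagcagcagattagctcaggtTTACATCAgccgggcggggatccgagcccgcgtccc

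The element began 23 bases before the start in Asns, 193 bases before it in Chac1 and 15 bases after it in Trib3, in the last 2 on the opposite strand. It occurred in 2.04% of 9323 windows of the genes compared, in 12 of 40 windows (30%) of the ATF4 list and in 4 of 6 windows of its called lower members. Among windows of all called lower genes the share was 3.25%. The list was written from known ATF4 targets, so its share says nothing of the change in level, and the presence of these letters is not evidence of binding.

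Genes of the interferon response and antigen presentation had 6 of 27 at least 2-fold lower, none higher, and 2 called lower. Ifit1 stood at 1.99, 0.360 and 0.807 RPKM (27, 2 and 4 reads), a ratio of 0.180 (0.0208 to 0.718), and Irgm1, an immunity GTPase, at 18.99, 8.53 and 15.3 RPKM (217, 40 and 64 reads), a ratio of 0.449 (0.312 to 0.632). The others of the 6, such as Isg15 at 4.90, 1.88 and 1.41 RPKM (19, 3 and 2 reads) and a ratio of 0.385 (0.0729 to 1.31), were too shallow for a call. In the endoplasmic reticulum folding list 2 of 28 were called lower, among them Herpud1, and in the antioxidant list Mgst1, a glutathione transferase (7.65, 1.51 and 2.82 RPKM (37, 3 and 5 reads), ratio 0.198 (0.0390 to 0.624)), and Hmox1, heme oxygenase (15.2, 6.93 and 8.45 RPKM (123, 23 and 25 reads), ratio 0.456 (0.278 to 0.715)), were lower while Gpx3, a secreted peroxidase, was higher (9.98, 29.3 and 27.3 RPKM (78, 94 and 78 reads), ratio 2.94 (2.15 to 4.02)). Of 30 heat shock and chaperonin genes Hspb1, a small heat shock protein of muscle, was the 1 called, at 119, 368 and 91.4 RPKM (553, 700 and 155 reads) and a ratio of 3.08 (2.75 to 3.45).

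Called cell cycle genes are given beside the 2.6% called higher and 1.88% called lower among all genes. At these shares lists of this length hold few called genes, so low counts are not read as a result. Of 45 mitosis genes none was 2-fold from the control, with 31 above it and a median log2 ratio of 0.10. Of 49 DNA replication genes 1 was called higher, the factor gene E2f2 (2.10, 6.01 and 2.02 RPKM (51, 60 and 18 reads), ratio 2.87 (1.94 to 4.25)), with a median of 0.15. Of 17 genes of D cyclins, CDK inhibitors and their partners 15 were above the control, with a median of 0.37, and the inhibitor gene Cdkn1a stood at 61.3, 93.8 and 38.9 RPKM (637, 400 and 148 reads), a ratio of 1.53 (1.35 to 1.74). Ccnd2, cyclin D2, was the 1 called member and was lower, at 6.62, 1.399 and 0.185 RPKM (196, 17 and 2 reads), a ratio of 0.211 (0.121 to 0.347). The p53 target Pmaip1, a BH3-only protein, was called higher at 1.03, 7.16 and 1.20 RPKM (7, 20 and 3 reads), a ratio of 6.96 (2.83 to 19.5), as the only one of 25 p53 targets. Cytosolic ribosomal protein genes were above the control in 57 of 70 genes with a median log2 ratio of 0.28; their many processed copies can share reads.

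Among the largest gains in RPKM, Ubb, a ubiquitin gene, stood at 1545, 2889 and 3328 RPKM, a ratio of 1.87 (1.81 to 1.93), and Gm1821 at 942, 1822 and 2118 RPKM, a ratio of 1.94 (1.84 to 2.04). Both were highest in the knockdown library, so the control was low and the overexpression and knockdown lines were high. These genes can share reads with each other. Tmsb4x, thymosin beta 4, which binds monomeric actin, stood at 586, 948 and 611 RPKM and a ratio of 1.62 (1.51 to 1.73).

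The ratios were also summarised by chromosome, a summary added after the values were seen. Chromosome 10, which holds the gene of Linc-RAM, stood apart. Of its 494 genes compared 398 (80.6%) were above the control, with a median log2 ratio of 0.35 and quartiles of 0.09 and 0.60, a median ratio of 1.28. Over its 304 genes with a mean of at least 5 RPKM the median was 0.36 and 84.9% were above the control. The shift ran along the whole chromosome, and the medians of 13 consecutive windows of 10 megabases lay between 0.17 and 0.59. The next highest median was 0.15 on chromosome 5, and the lowest was -0.19 on chromosome 18. Of the genes of chromosome 10, 36 were called higher (7.29%, beside 2.6% of all genes) and 6 were called lower (1.21%). In the knockdown library the median log2 ratio of the chromosome to the same control was 0.13, the highest but that of chromosome 9 (0.17) in a range of -0.21 to 0.17.

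The chromosome-wide shift moves with the called genes there named above, which are Itga7, Dcn, Socs2, Gpr126, Ntn4, Vgll2 and Tspan15 on the higher side and Lrig3 on the lower. The part of the shift in their ratios was not tested, and DNA was not measured. Without the genes of chromosome 10, 227 genes were called higher and 184 lower of 9636 compared.

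**Figure D5:**
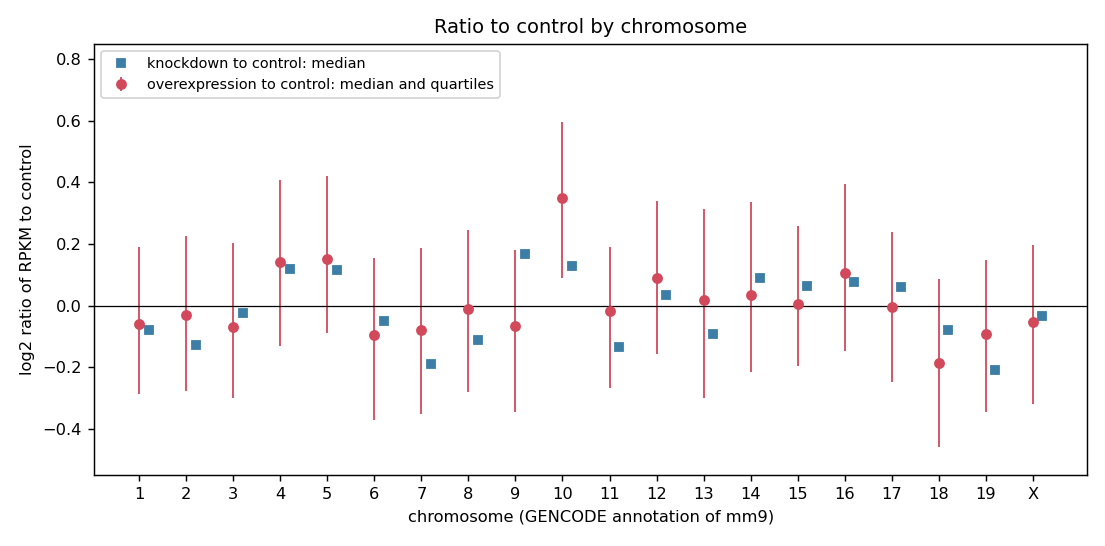
Median log2 ratio of RPKM to control for the genes of each chromosome (horizontal axis), with overexpression (red points, bars from the lower to the upper quartile of genes, which are not replicates) and with knockdown (blue squares). Chromosome 10 stands at 0.35 with overexpression, with its lower quartile above 0, while all other medians lie between -0.19 and 0.15.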

How the data were processed

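Polyadenylated RNA of 3 C2C12 lines was sequenced, 1 library per line, and samples were grouped by their labels. The authors aligned reads with TopHat to mm9, where the submitters' processing notes give version 1.4.1, and deposited the RPKM values that DEGSeq made, 1 per gene in each library. Neither the annotation nor how strand and multiply mapped reads were handled is given in the sources used here, so overlapping genes, antisense genes and near-identical copies cannot be separated.

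Reads were recovered from the RPKM values, since 1 read of a gene is worth the same step at a given length and read total. The total of each library was the one at which low values fell on whole reads at GENCODE transcript lengths, and values made from it returned 86.2%, 85.5% and 84.7% of 1182, 1287 and 1343 trial values to the 6 digits deposited in the control, overexpression and knockdown libraries. Lengths were annotated for 2397 members. For the other 7775 members the length was the smallest whole one from 200 nt that gave whole reads in all 3 libraries. This step can make reads too few and intervals too wide. Duplicate reads and reads shared between genes could make intervals too narrow, and neither was measured. A value of 0 was set to a floor of 3 reads, which makes the ratio a bound, and 42 members with at most 3 reads in both libraries have no ratio. The steps were tested on simulated data. With no replicates no test between conditions was run, and an interval compares 2 libraries, not conditions.

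The 63 gene lists, the members and the tests were chosen with earlier results of these data known. Named genes are the gene of Linc-RAM, the 10 highest and 10 lowest ratios where the mean reached 5 RPKM, the 5 largest gains and losses in RPKM, up to 4 called members per list and direction and the 2 most abundant members per list. Cd44, Hey1, Isg15, Jag2, Myl9, Ntn1, Pet2 and Tspan7 lie outside this rule and were chosen after their values were seen, and Pdgfra, Cdh15 and the genes listed at or near 0 come from a set of cell type markers. Alternatives were other filters, scalings, thresholds, added constants and read lengths. Gene positions are those of GENCODE on mm9; promoter windows are those of RefSeq on GRCm38.p6 and were not converted. Some genes that this rule names and 1 list are not reported here. The knockdown library was not analysed here as a comparison of its own. Versions were scipy 1.17.1, numpy 2.4.6 and pandas 2.3.3 under Python 3.11.15, with figures from matplotlib 3.10.9.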

Additional observations from a re-analysis of the deposited data

How the results depend on the processing

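Counts at the 2-fold criterion depended on how low values were treated. Higher and lower genes were 355 and 337 as reported, 567 and 609 with no filter on the mean, 101 and 70 at a mean of at least 5 RPKM, 1052 and 954 at a 1.5-fold threshold and 185 and 143 with 1 RPKM added. Called genes, 263 and 190, became 98 and 64 at a mean of at least 5 RPKM, 576 and 447 at the 1.5-fold threshold and, for lower genes, 126 with a 99% interval. With at least 50 reads over both libraries, an alternative chosen after seeing the data, 152 and 143 genes were 2-fold from the control and 152 higher genes were called. The other 36 of 52 recomputed counts stayed within 1.5 times, under every scaling tried, without genes listed at 0, without the genes of chromosome 10 and at an assumed length of 2000 nt. Of 151 called genes named in the text, 25 were under 2-fold with 1 RPKM added, among them Notch1, Hes1, Dll1, Egfr, Lef1, Myod1 and Pak3. With 0.1 RPKM added 1 gene (Dock6) was under 2-fold, and after upper quartile scaling 1 (Myod1) was. None changed direction, but none could, because a constant added to both values cannot carry a ratio across 1. The scalings were too small to reverse a 2-fold ratio, so the directions were not tested by these alternatives. Of 412 recomputed list medians 24 changed sign. The complement list, at a median log2 ratio of 0.38 over 9 genes, was at -1.23 over 2 genes at a mean of at least 5 RPKM, and the AP-1, cytokine and histone lists were among those that also changed sign with a filter. Without the genes of chromosome 10 the HES and HEY, protease and eicosanoid medians changed sign. No paired analysis was possible because each condition has 1 library. Counting error at these depths limits the lower genes most, and no alternative replaces the missing replicates.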

Other observations

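The genes of these paragraphs were chosen after their values were seen, and no test was run on them. The Ly6 genes, which encode small GPI-anchored surface proteins and lie together on chromosome 15, were higher with overexpression in each of the 4 that were compared. Ly6a, the stem cell antigen Sca-1, stood at 78.9, 248 and 82.3 RPKM (335, 433 and 128 reads) in the order used above, a ratio of 3.15 (2.72 to 3.64). Ly6c1 stood at 15.0, 59.2 and 12.6 RPKM (65, 105 and 20 reads), a ratio of 3.94 (2.86 to 5.45), and Ly6e at 65.9, 139 and 107 RPKM (778, 672 and 464 reads), a ratio of 2.10 (1.90 to 2.34). Ly6i was called from 6 control reads, at 1.33, 5.95 and 1.21 RPKM (6, 11 and 2 reads) and a ratio of 4.47 (1.51 to 14.7). The genes resemble each other in sequence, so reads could be shared among them. The median log2 ratio of the 427 genes of chromosome 15 was 0.00, and the knockdown library stood near the control for Ly6a and Ly6c1 and above it for Ly6e.

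Imprinted genes differed from each other. Mest stood at 2.22, 8.78 and 11.3 RPKM (29, 47 and 54 reads), a ratio of 3.95 (2.43 to 6.51), and Ndn, which encodes necdin, at 1.65, 6.62 and 2.26 RPKM (14, 23 and 7 reads), a ratio of 4.003 (1.97 to 8.41). Peg10 stood at 22.5, 10.9 and 33.4 RPKM (768, 153 and 418 reads), a ratio of 0.485 (0.405 to 0.578), while its neighbour Sgce stood at 5.30, 6.59 and 8.80 RPKM (51, 26 and 31 reads), a ratio of 1.24 (0.743 to 2.03). H19, a long noncoding RNA of myoblasts, stood at 697, 845 and 119.7 RPKM (9349, 4650 and 588 reads), a ratio of 1.21 (1.17 to 1.26), and was by far lowest in the knockdown library. Peg3 stood at 46.4, 48.6 and 50.1 RPKM (1576, 678 and 623 reads), a ratio of 1.05 (0.957 to 1.15). Beside the ATF4 targets of the list, Aldh1l2 and Pck2, mitochondrial enzymes of one-carbon metabolism and of phosphoenolpyruvate synthesis, stood at 7.66, 1.65 and 2.03 RPKM (237, 21 and 23 reads), a ratio of 0.216 (0.131 to 0.338), and at 15.0, 5.73 and 8.61 RPKM (261, 41 and 55 reads), a ratio of 0.383 (0.268 to 0.534). Aldh1l2 lies on chromosome 10, so its ratio went against that of most genes there.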
